A study of Mus musculus with 16 samples.

Results

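The loss of the -77 enhancer of Gata2 was examined by comparing chromatin accessibility in 4 ATAC-Seq libraries of hi-77-/- cells that carried an empty vector with that in 4 libraries of hi-77+/+ cells that carried the same empty vector. These 8 of the 16 libraries in the series were chosen by their genotype and vector labels, and the loci whose accessibility differed were described across the genome. All groups were hematopoietic progenitors from mouse fetal liver, immortalized with an estrogen-regulated HoxB8, expanded in medium with β-estradiol, incubated with retrovirus for 3 d and isolated by FACS. The other 8 libraries were hi-77-/- cells infected to express GATA2 or 9aa-Ins, a GATA2 variant with 9 amino acids inserted between its zinc fingers, with 4 libraries each. They served only to define the regions and to show whether a peak was also present in other hi-77-/- cells. The labels name no separate lines or animals within a genotype, so the deletion and the line that carries it cannot be told apart, and p-values measure the spread between these libraries.

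GATA2 is a zinc finger transcription factor that binds GATA motifs and is required for the genesis and function of hematopoietic stem and progenitor cells. The -77 enhancer lies far upstream of Gata2 and sustains its expression in myelo-erythroid progenitors, where GATA2 activates genes of the mast cell and erythroid programs and represses genes of inflammatory signaling and of the B lineage. HoxB8 blocks the maturation of myeloid progenitors and keeps them dividing while estrogen is present. In ATAC-Seq a transposase cuts accessible DNA, and a peak marks a stretch with more cuts than the background of its library, as an enhancer or promoter bound by transcription factors would have.

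A peak was given a rank within its library by its significance, with rank 1 the most significant, and the 49000 peaks of best rank on chromosomes 1 to 19 and X were retained. Overlapping peaks (1 bp or more) of the 16 libraries were joined into 90549 regions with a median length of 271 bp. A region was called opened when all 4 hi-77-/- empty libraries and no hi-77+/+ empty library had a retained peak, and closed in the reverse case. This call has no p-value. At regions with a peak of any rank in all 8 libraries, the fold enrichments, which express peak height over the background of the same library, were compared with limma after quantile normalization, as log2 differences of hi-77-/- empty minus hi-77+/+ empty.

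The site named in the genotype was examined first. Between 76 and 78 kb upstream of the Gata2 transcription start site (TSS), peaks covered 1414, 1261, 1552 and 1196 bp in hi-77+/+ empty replicates 1 to 4 and 293, 191, 78 and 609 bp in hi-77-/- empty replicates 1 to 4. The groups did not overlap. The means were 1356 ± 160 bp (SD, n = 4) and 293 ± 228 bp (SD, n = 4), and the exact permutation test gave p = 0.0286, the smallest that 4 against 4 libraries allow. The merged region there, chr6:88116294-88117707, ranked 3093, 3532, 4504 and 5115 in hi-77+/+ empty replicates 1 to 4. In hi-77-/- empty replicates 1 to 4 it ranked 55111, 56704, 59624 and 28146. Fold enrichment was 22.3 to 28.1 in the former and 4.75 to 9.00 in the latter, a log2 difference of -2.23 (SE 0.181, adjusted p = 1.92e-14). Because replicate 4 of the hi-77-/- empty group retained a peak within it, the region was not called closed. A run of 291 bp, chr6:88116444-88116734, and a run of 244 bp, chr6:88117396-88117639, lay under peaks of all 4 hi-77+/+ empty libraries and of no hi-77-/- empty library. Of the 12 hi-77-/- libraries of the series, 1 had a peak over part of the first run and 2 over part of the second. Between the runs each hi-77-/- empty library had at least 1 peak, from a single one of rank 59624 in replicate 3 to the peak of rank 28146 in replicate 4, so DNA from that stretch was sequenced in these libraries. The boundaries of the deletion were not used here, and the source of these peaks was not tested.

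The run of 291 bp and the 200 bp around the summit of the hi-77+/+ peak are shown because the former had peaks in hi-77+/+ empty libraries alone among these 8, while in the latter weaker peaks of hi-77-/- empty replicates 1, 2 and 4 remained. They lie on the plus strand at chr6:88116444-88116734 and chr6:88116780-88116979 of the RefSeq GRCm38.p6 assembly (mm10), and capitals mark matches to the GATA motif (AGATAA or AGATAG, and the same letters with T in first place, such as TGATAA) and the E-box (CANNTG), searched on both strands.
-77 site, run: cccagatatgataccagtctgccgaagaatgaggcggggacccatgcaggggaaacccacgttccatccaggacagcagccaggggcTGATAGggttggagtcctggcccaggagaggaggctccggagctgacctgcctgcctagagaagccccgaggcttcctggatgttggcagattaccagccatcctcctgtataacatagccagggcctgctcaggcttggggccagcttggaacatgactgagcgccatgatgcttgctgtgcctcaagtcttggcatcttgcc
-77 site, summit: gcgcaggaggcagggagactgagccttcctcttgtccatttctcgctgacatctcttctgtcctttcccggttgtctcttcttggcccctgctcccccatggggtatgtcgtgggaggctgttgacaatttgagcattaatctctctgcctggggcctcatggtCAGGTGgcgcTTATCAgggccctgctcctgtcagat
The run held 1 GATA match and no E-box, and the summit window held 1 of each. Of all 65790 distal regions, those over 3 kb from a protein-coding TSS, 29.5% held a GATA motif within 200 bp around the summit and 70.2% held an E-box. A match describes the letters and is not evidence of binding.

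**Figure D1:**
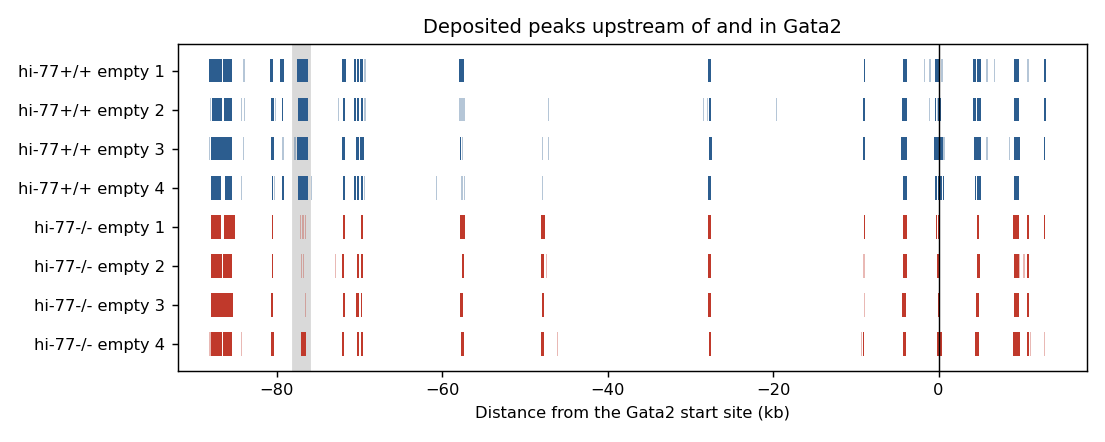
Peaks of each library by distance from the Gata2 TSS (x axis, kb), with hi-77+/+ empty and hi-77-/- empty replicates as rows, peaks beyond rank 49000 in pale color and the window from 76 to 78 kb upstream in grey. The hi-77+/+ empty libraries had strong peaks near -77 kb (ranks 3093 to 5115), whereas the hi-77-/- empty libraries had a rank of 28146 or weaker there and a peak at -47.6 kb that hi-77+/+ empty libraries lacked or held at rank 63465 or weaker.

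At the remainder of the Gata2 locus, 2 of 13 regions opened and none closed. Over all regions within 100 kb of a protein-coding TSS 3.28% opened and 2.18% closed. The opened region 47.6 kb upstream, chr6:88145840-88146260, ranked 24538, 13631, 28245 and 17702 in hi-77-/- empty replicates 1 to 4. hi-77+/+ empty replicates 1 and 2 had no peak there, and replicates 3 and 4 had peaks of rank 63465 and 65471. With GATA2 expressed in the hi-77-/- cells this region had a retained peak in 0 of 4 libraries, and with 9aa-Ins in 4 of 4. An opened region in a coding exon, chr6:88204491-88205524, ranked 21782 to 38691 in hi-77-/- empty libraries, and in hi-77+/+ empty libraries only replicate 1 had a peak, of rank 68215. Of the 2 promoter regions of Gata2 tested, one (chr6:88193388-88194393) differed by -0.18 (adjusted p = 0.496) and did not pass the test. The other (chr6:88198078-88199082) was lower by a log2 difference of -0.59 (SE 0.177, adjusted p = 0.00579), with ranks of 23864 to 30692 in hi-77-/- empty and 10234 to 17989 in hi-77+/+ empty. A peak 3.72 kb upstream was also lower (-0.44, adjusted p = 0.00584). Peaks 27.4 kb upstream (0.77, adjusted p = 0.00108) and in an intron (chr6:88202881-88203775, 0.38, adjusted p = 0.0449) were higher. The intronic region lies 4.55 kb downstream of its nearest Gata2 TSS, which falls in the second promoter region. From the TSS used for the -77 window, its peak in hi-77-/- empty replicate 1 ran from 9.053 to 9.725 kb downstream. The -47.6 kb sequence is shown because it opened near the gene whose enhancer was deleted, and its capitals mark the ETS letters AGGAAG or CGGAAG, which 44.4% of distal regions held (chr6:88145942-88146141, plus strand).
Gata2 -47.6 kb, opened: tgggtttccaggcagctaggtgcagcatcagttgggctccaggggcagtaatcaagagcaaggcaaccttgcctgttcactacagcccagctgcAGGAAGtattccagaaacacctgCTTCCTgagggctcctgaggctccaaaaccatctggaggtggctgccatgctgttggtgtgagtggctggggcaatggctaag
This window held 2 ETS matches and no GATA match.

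Several measures of whole chromosomes separated the genotypes. The peak lists of the 8 libraries held 64258 to 112267 peaks, with more in each hi-77+/+ empty library (76447 to 112267) than in any hi-77-/- empty library (64258 to 74703), so lists of equal length were compared. Promoters of 9 of 10 progenitor markers had a peak in 8 of 8 libraries (Cd48, a receptor of blood cells, had none), against 0 of 10 hepatocyte, 1 of 10 endothelial, 2 of 10 mesenchymal and 3 of 10 T cell markers. The Y-linked genes Ddx3y, Eif2s3y and Uty had a promoter peak in 4 of 4 hi-77+/+ empty libraries and 0 of 4 hi-77-/- empty libraries. Xist, the RNA that coats the inactive X chromosome, had one in 0 of 4 and 4 of 4. The genotypes therefore also differed in sex-linked loci, and the part of this difference in other regions was not tested.

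Chromosome 8 was lower as a whole. It held 5.85%, 5.21%, 5.38% and 5.38% of the retained peaks in hi-77-/- empty replicates 1 to 4 and 7.84%, 7.92%, 7.98% and 7.64% in hi-77+/+ empty replicates 1 to 4 (exact permutation p = 0.0286, adjusted p = 0.0952 over 20 chromosomes). Of its 5942 regions, 344 (5.79%) closed and 83 (1.40%) opened, and these were 17.98% of all closed regions. The median log2 difference of its 2056 shared regions was -0.30, and the medians of all 13 segments of 10 Mb along it were below 0 (-0.47 to -0.23). Chromosome 19 had a median of -0.14. On the remaining chromosomes the closed share was 1.02% to 2.48%. What sets this chromosome apart was not tested, and the main counts are given with and without chromosomes 8, 19 and X.

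**Figure D2:**
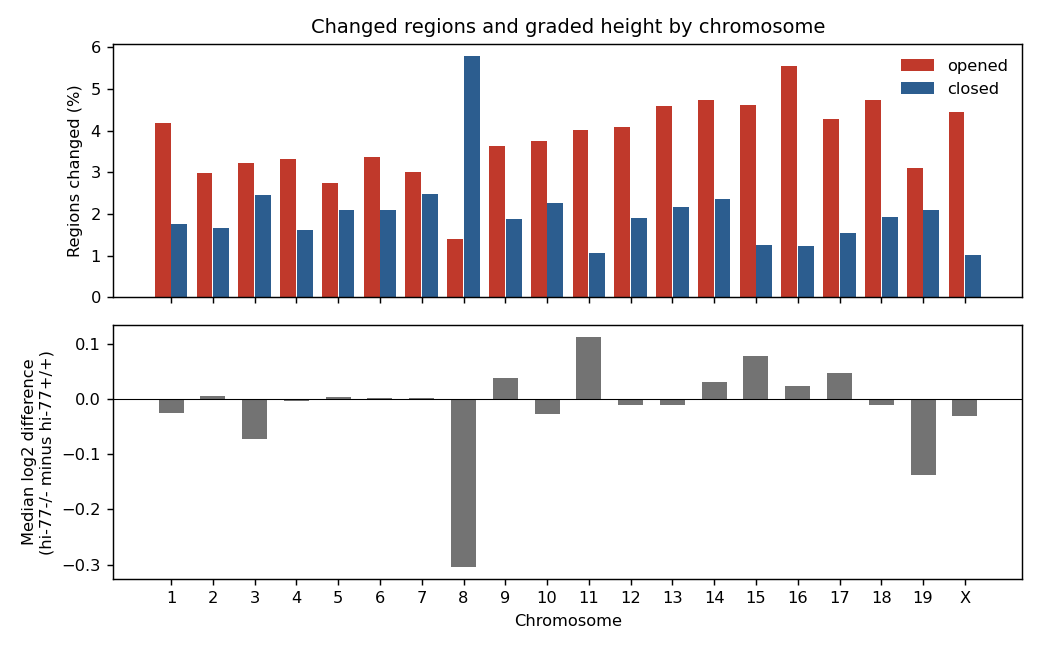
Share of regions opened and closed on each chromosome (upper bars, percent) and the median log2 difference of peak height at its shared regions, hi-77-/- empty minus hi-77+/+ empty (lower bars). Chromosome 8 stands apart with 5.79% of regions closed and a median of -0.30.

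Across the genome, 3251 of 90549 regions (3.59%) opened and 1913 (2.11%) closed after loss of the -77 enhancer, so that 63.0% of the 5164 changed regions had gained a peak. With every deposited peak, in lists of unequal length, the balance turned, with 2409 opened, 4270 closed and an opened share of 36.1%, and with an overlap of 50% the share was 51.5%. Without chromosomes 8, 19 and X, 3001 of 79947 regions opened (3.75%) and 1489 closed (1.86%). Without replicate 4 of the hi-77-/- empty group, the library with the peak of rank 28146 at the -77 site, 3555 opened and 2235 closed. With a library left out the call asks for fewer libraries, so the counts can only rise. The libraries separated by genotype, with a mean Jaccard index (shared regions over regions in either library) of 0.729 within hi-77-/- empty, 0.688 within hi-77+/+ empty and 0.562 between them. No pair within a group (0.683 or higher) was as dissimilar as any pair between groups (0.585 or lower), and the difference of 0.146 gave a one-sided exact permutation p of 0.0286.

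Opened and closed regions differed in position. Opened regions had a median length of 441 bp and closed regions 234 bp. A region's length is that of the peaks joined over all 16 libraries, 12 of them hi-77-/-. Opened regions could thus be joined from more libraries than closed ones, and the part of this in the lengths was not tested. Of the opened regions, 1058 (32.5%) had no peak of any rank in a hi-77+/+ empty library, and 825 closed regions (43.1%) had none in a hi-77-/- empty library. A weaker peak below rank 49000 was present in all 4 libraries of the other group at 281 opened and 47 closed regions. Promoters, within 3 kb of a TSS, made up 27.3% of all regions, 12.95% of opened and 23.3% of closed regions. Intergenic regions made up 36.4%, 45.2% and 31.3%. Within the promoters 421 (1.70%) opened and 446 (1.80%) closed, against 1469 (4.46%) and 598 (1.82%) of intergenic and 1207 (4.21%) and 739 (2.58%) of intronic regions. Per library, promoters held 38.53%, 38.07%, 38.03% and 37.08% of retained peaks in hi-77-/- empty replicates 1 to 4 and 38.59%, 38.80%, 38.86% and 39.90% in hi-77+/+ empty replicates 1 to 4. All hi-77-/- empty values were below all hi-77+/+ empty values, but the difference did not pass adjustment over 5 measures (exact permutation p = 0.0286, adjusted p = 0.0714).

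Changed regions were spread over many genes. With each region assigned to the nearest protein-coding TSS within 100 kb, 2026 of 16949 genes had an opened region, 1539 a closed region and 183 both. In this assigned set of 81490 regions, 3.28% opened and 2.18% closed, which is the background for the gene counts. Among 33526 shared regions, 6899 (20.6%) were higher and 7056 (21.0%) lower in hi-77-/- empty at an adjusted p under 0.05, and 1180 (3.52%) were higher and 898 (2.68%) lower by at least 1 on the log2 scale. Without quantile normalization the median of all shared regions was 0.14 in place of -0.01 and the calls were 10581 higher and 4603 lower, so directions of small differences depend on the scaling. Of shared regions near genes, 19.9% were higher and 21.5% lower. Large differences were more frequent at distal than at promoter regions, with 998 of 19411 distal regions higher (5.14%) and 648 lower (3.34%) by at least 1, against 182 (1.29%) and 250 (1.77%) of 14115 promoters.

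The strongest opened distal regions ranked 4956 or better in each hi-77-/- empty library. The first lay in a coding exon of Mcfd2 (chr17:87255405-87256276), which encodes a cargo receptor subunit for coagulation factors. It ranked 2188, 1885, 2051 and 1165 in hi-77-/- empty replicates 1 to 4 and 52173, 104356, 74357 and 60506 in hi-77+/+ empty replicates 1 to 4. A region in Tmprss2, which encodes a transmembrane serine protease (chr16:97589934-97591475), ranked 549 to 2799 in hi-77-/- empty and 59273 or weaker, or without a peak, in hi-77+/+ empty. A region 192 kb upstream of Map3k1, a kinase of stress signaling, ranked 2490 to 4301 and was absent or at rank 73527 or weaker. The other 2 had no peak in any hi-77+/+ empty library. One lay in the untranslated region of Pax7, which encodes a paired-box factor, with Tas1r2 as the nearest TSS (chr4:139738502-139739366, ranks 2408 to 4501). The other lay in Ftx, a noncoding gene of the X inactivation center, with Zcchc13 as the nearest protein-coding TSS (chrX:103616618-103617582, ranks 2319 to 4956). All 5 had a retained peak in all 12 hi-77-/- libraries.

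At promoters, the strongest opened region was that of Cstf2t, which encodes a subunit of the polyadenylation machinery, with ranks 2314 to 3784 in hi-77-/- empty and no peak in hi-77+/+ empty. Aim2, an inflammasome sensor of cytosolic DNA, followed (chr1:173420272-173420752). Its promoter ranked 4801, 4621, 2333 and 5286 in hi-77-/- empty replicates 1 to 4, and of the hi-77+/+ empty libraries only replicate 4 had a peak, of rank 62020. Wfs1, an endoplasmic reticulum membrane protein, Prelid2, a PRELI domain protein, and Igll1, the surrogate light chain component λ5 of the pre-B cell receptor, completed the set, with median ranks of 4812, 7950 and 9310 in hi-77-/- empty.

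Among closed distal regions, the best ranked were a coding exon of 4931428F04Rik, a region 80.5 kb upstream of Zmiz1, a transcriptional coregulator, a coding exon of Mboat4, the acyltransferase of ghrelin, an intron of Rbm20, a splicing regulator, and an intron of Ahi1, a ciliary protein. The Zmiz1 region (chr14:25377711-25378681) ranked 8635, 8547, 9141 and 6410 in hi-77+/+ empty replicates 1 to 4. It had no peak in any of the 12 hi-77-/- libraries. The Ahi1 region ranked 8409 to 15195 in hi-77+/+ empty and 50289 to 69609 in hi-77-/- empty, and had retained peaks in all 8 libraries that express GATA2 or 9aa-Ins. Of these 5, the regions of 4931428F04Rik and Mboat4 lie on chromosome 8 and that of Rbm20 on chromosome 19.

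The strongest closed promoter was that of Bag3, a co-chaperone of Hsp70 (chr7:128523359-128524512). It ranked 4696, 5799, 4535 and 3535 in hi-77+/+ empty replicates 1 to 4, and of the hi-77-/- empty libraries only replicate 2 had a peak, of rank 57401. The promoter of Fam129a, a regulator of translation under stress, ranked 8047 to 18585 against no peak in any hi-77-/- empty library. The promoters of Snapc2, a subunit of the small nuclear RNA activating complex, Tmem218, a transmembrane protein, and Cers4, a ceramide synthase, had median ranks of 6721, 9306 and 9630 in hi-77+/+ empty, and Snapc2 and Cers4 lie on chromosome 8.

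**Figure D3:**
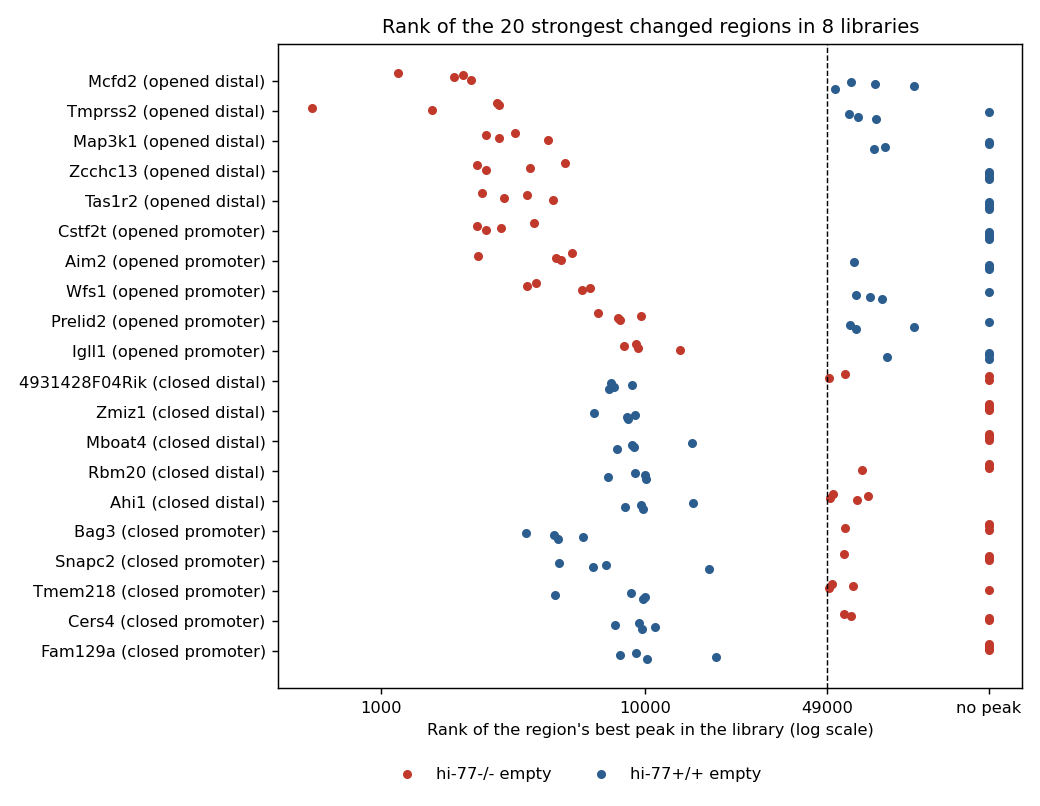
Rank of each library's peak (log axis, 1 is strongest) at the named opened and closed regions, 1 point per library, with a dashed line at rank 49000 and libraries without a peak drawn at the right edge. At the Mcfd2 region the hi-77-/- empty libraries ranked 1165 to 2188 and the hi-77+/+ empty libraries 52173 to 104356, and at the Bag3 promoter the hi-77+/+ empty libraries ranked 3535 to 5799.

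Regions with peaks in all 8 libraries gave the same kind of description with a test. These include 281 opened and 47 closed regions, such as those of Mcfd2, Id2, Rgs6, Ahi1, Pim3 and Tifab. Ranking peaks by fold enrichment gave the same opened and closed counts, so for these regions the p-value is not evidence separate from the call. The Mcfd2 region had the largest higher value, a log2 difference of 2.73 (SE 0.169, adjusted p = 1.71e-18). A region 85.0 kb downstream of the Cd47 TSS (chr16:49951810-49952810) was next. Cd47 encodes the signal that protects cells from phagocytosis. The region had fold enrichments of 42.1, 43.7, 39.3 and 47.4 in hi-77-/- empty replicates 1 to 4 and 6.68, 8.45, 7.03 and 5.89 in hi-77+/+ empty replicates 1 to 4, with no overlap (2.55, SE 0.138). Higher regions also lay near Rab7b, a GTPase of endosomal transport (2.45), Serpinh1, a collagen chaperone (2.258), Alppl2, an alkaline phosphatase (2.256), Id2, an inhibitor of E proteins (2.204), Rgs6, a regulator of G protein signaling (2.16), Il10ra, the receptor for interleukin 10 (2.11), and Sik1, a salt-inducible kinase (2.11). Near Cbfa2t3, a corepressor in progenitors on chromosome 8, the difference was 2.15 and became 2.53 after centring each chromosome on its own median.

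The lower regions began with one 1.37 kb upstream of Atp11a, a phospholipid flippase on chromosome 8 (-2.26, or -1.88 after centring), and the -77 site itself (-2.23). The promoter of Derl3, a component of endoplasmic reticulum-associated degradation, had fold enrichments of 5.805, 8.466, 8.138 and 8.403 in hi-77-/- empty replicates 1 to 4 and 33.4, 38.4, 22.8 and 28.0 in hi-77+/+ empty replicates 1 to 4 (-2.11, SE 0.154, adjusted p = 7.27e-16). Def6, a guanine nucleotide exchange factor (-1.99), Ahi1 (-1.90), Zfp53, a zinc finger protein (-1.89), Cep131, a centrosomal protein (-1.88), and Pim3, a proto-oncogene kinase (-1.84), followed. Mast3, a kinase, and Stxbp2, a regulator of granule secretion, lie on chromosome 8, where differences of -1.89 and -1.87 became -1.50 and -1.49 after centring. These 20 differences retained their sign and an adjusted p under 0.05 in each alternative fit that held them. The fit limited to regions with a retained peak in all 8 libraries held only 3 of them, Zfp53, Mast3 and Stxbp2.

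Genes that GATA2 activates in these cells showed few presence calls. In the list of 9 such genes, taken from the study, 1 of 90 regions opened (1.11%) and none closed, beside 3.28% and 2.18% over all regions near genes. Some of the 90, as at Il1rl1, Gata1 and Csf2rb, had retained peaks only in libraries that express GATA2 or 9aa-Ins. Such regions could not be called here, which lowers the counts. Of 26 shared regions 5 were higher (19.2%) and 8 lower (30.8%), beside 19.9% and 21.5% over all shared regions near genes. Their median was -0.23 against -0.01 over all shared regions. Hdc encodes the enzyme that makes histamine. Its promoter ranked 53122, 54720, 57322 and 35322 in hi-77-/- empty replicates 1 to 4 and 16986, 11581, 28285 and 26421 in hi-77+/+ empty replicates 1 to 4, a log2 difference of -1.11 (SE 0.213, adjusted p = 3.11e-05). An intronic region of Hdc was higher (0.99, adjusted p = 5.35e-05). At Far2, a fatty acyl-CoA reductase, regions 18.4 kb upstream (-0.43) and 58.3 kb downstream (-0.65) were lower. Csf2rb, the common β chain of cytokine receptors, had a higher promoter (0.54) and a lower intronic region (-0.74). Il1rl1, the receptor for interleukin 33, and Kit, the receptor for stem cell factor, had no opened or closed region and 1 shared region each, which did not pass the test. Gata1, the erythroid GATA factor, had no opened or closed region and no shared region to test.

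Genes that GATA2 represses had a larger share of opened regions than all regions near genes. In the list of 25 genes from the study, 19 of 156 regions opened (12.2%) and 1 closed (0.641%), beside 3.28% and 2.18% over all regions near genes, and 17 of 134 opened without chromosomes 8, 19 and X. Of the 19 opened regions, 7 had no peak of any rank in a hi-77+/+ empty library (4.49% of the list, beside 1.17% over all regions). Among 65 shared regions 23 were higher (35.4%) and 10 lower (15.4%), beside 19.9% and 21.5% over all shared regions near genes, with a median of 0.18. The study chose these genes with data from these cells, so their direction is not independent evidence.

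Of the genes of the 2 chains of the interleukin 6 receptor, Il6st had opened regions and Il6ra had none. At Il6ra, the ligand-binding chain, 1 of 6 shared regions was higher and none lower. Over all shared regions near genes 19.9% were higher and 21.5% lower. The higher Il6ra region, 1.34 kb from the TSS, ranked 4100, 3710, 5905 and 6361 in hi-77-/- empty replicates 1 to 4 and 35623, 33742, 19827 and 44646 in hi-77+/+ empty replicates 1 to 4. It was higher by 1.62 on the log2 scale (SE 0.163, adjusted p = 1.50e-11). The region over the TSS (0.18, adjusted p = 0.157) and that 2.93 kb from it (0.14, adjusted p = 0.616) did not pass the test. The promoter of Il6st, the signaling chain gp130, was higher by 1.21 (SE 0.190, adjusted p = 8.22e-07). Regions 35.9 and 30.5 kb upstream of Il6st opened, with ranks of 14139 to 21017 and 22791 to 46375 in hi-77-/- empty and no peak in any hi-77+/+ empty library.

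Tifab, an inhibitor of the adaptor TIFA in innate immune signaling, had an opened region 15.4 kb downstream (chr13:56162460-56163424). It ranked 12639, 9904, 13941 and 6581 in hi-77-/- empty replicates 1 to 4 and 50852, 50773, 67091 and 79218 in hi-77+/+ empty replicates 1 to 4 (1.77, SE 0.195, adjusted p = 2.00e-10). Peaks 18.7 and 5.10 kb downstream were higher as well (0.87 and 0.94), while those 12.5 and 18.6 kb upstream were lower (-0.78 and -0.38). Irf8, the factor that directs monocyte and dendritic cell fate, lies on chromosome 8 and had adjacent regions with opposite calls. The region 68.4 kb downstream opened (ranks 26014 to 44684) and the region 68.9 kb downstream closed (ranks 15940 to 24621 in hi-77+/+ empty). Of the inflammatory genes Ifi209, an interferon-inducible sensor, was higher by 0.94 and Trem1, a receptor that amplifies inflammation, by 0.46 and 0.50 at its regions, and Nlrp1a, an inflammasome sensor, had no opened or closed region and none to test.

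B-lineage genes, a list that overlaps the repressed list, also had opened regions. Over a list of 28 such genes, 14 of 150 regions opened (9.33%) and none closed, beside 3.28% and 2.18% over all regions near genes. Without chromosomes 8, 19 and X 11 of 133 opened. Of 53 shared regions 13 were higher (24.5%) and 6 lower (11.3%), beside 19.9% and 21.5% over all shared regions near genes, with a median of 0.10. Dntt, the terminal transferase of immunoglobulin gene assembly, on chromosome 19, had 3 opened regions. Pax5 and Rag2 had 2 each, and Igll1, Vpreb3, Vpreb2, Rag1, Cd79b, Tcf3 and Blk had 1 each. Only 3 of the 14 lacked a peak of any rank in every hi-77+/+ empty library (2.00% of the list, beside 1.17% over all regions). Of all opened regions 32.5% lacked one. The opened regions of Pax5, Rag2, Igll1, Vpreb3, Rag1 and Cd79b were already counted in the repressed list. Only Dntt, Tcf3, Vpreb2 and Blk added opened regions to it. For the regions in both lists the direction is not independent evidence.

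The promoter of Pax5, the factor that fixes B-cell identity, was open in both genotypes and higher in the hi-77-/- cells. It ranked 3432, 2170, 2594 and 1648 in hi-77-/- empty replicates 1 to 4 and 26148, 18884, 23612 and 14686 in hi-77+/+ empty replicates 1 to 4 (1.42, SE 0.133, adjusted p = 1.69e-12). A region 1.78 kb upstream opened with ranks of 17526 to 27632, and one 80.8 kb downstream with ranks of 29021 to 37012. Rag1, a subunit of the V(D)J recombinase, opened at its promoter with ranks 35366, 29984, 42407 and 43162 and no peak in hi-77+/+ empty. Rag2, its partner, opened at regions 1.28 kb upstream and 0.382 kb downstream. Vpreb3, a protein of pre-B cells, opened and was higher by 1.36 (adjusted p = 2.99e-07). Cd79a, a signaling chain of the B-cell receptor, was higher at its promoter by 0.79 (adjusted p = 0.00220), and Cd79b, its partner, opened 3.62 kb upstream. Mef2c, a factor of lymphoid and myeloid progenitors, opened 21.4 kb from a TSS and had 3 of 7 shared regions higher, among them promoter regions (1.02 and 0.75), and 2 lower, 62.2 kb (-0.82) and 77.6 kb downstream (-0.71). Ebf1, the factor that specifies the B lineage, had no opened or closed region, and of its 9 shared regions 2 were higher and 1 lower. After centring each chromosome the higher region 31.0 kb upstream did not pass (adjusted p = 0.165), while regions 1.75 kb (adjusted p = 0.0416) and 64.8 kb downstream (adjusted p = 0.0317) were lower.

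The sequences of opened regions near Tifab, Pax5, Igll1, Rag1 and Cd79b are shown because they carry the opened calls at the repressed and B-lineage genes. Each is the plus strand of GRCm38.p6 around the summit, and capitals mark GATA, ETS or EBF (CCCNNGGGA) letters on either strand. The coordinates are chr13:56162922-56163121, chr4:44706057-44706256, chr16:16863948-16864147, chr2:101649476-101649675 and chr11:106318814-106319013 in that order.
Tifab +15.4 kb, opened: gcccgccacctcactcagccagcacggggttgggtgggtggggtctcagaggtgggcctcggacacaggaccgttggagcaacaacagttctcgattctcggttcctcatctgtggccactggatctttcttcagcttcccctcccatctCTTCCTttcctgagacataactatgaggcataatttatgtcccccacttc
Pax5 -1.78 kb, opened: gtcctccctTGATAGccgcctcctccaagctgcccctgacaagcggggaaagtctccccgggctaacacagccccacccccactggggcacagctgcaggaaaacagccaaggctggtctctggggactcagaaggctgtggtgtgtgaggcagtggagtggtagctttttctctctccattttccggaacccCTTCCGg
Igll1 promoter, opened: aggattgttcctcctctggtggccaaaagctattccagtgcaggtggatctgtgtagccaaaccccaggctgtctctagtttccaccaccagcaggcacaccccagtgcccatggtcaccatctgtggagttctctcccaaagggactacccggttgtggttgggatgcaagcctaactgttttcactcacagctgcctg
Rag1 promoter, opened: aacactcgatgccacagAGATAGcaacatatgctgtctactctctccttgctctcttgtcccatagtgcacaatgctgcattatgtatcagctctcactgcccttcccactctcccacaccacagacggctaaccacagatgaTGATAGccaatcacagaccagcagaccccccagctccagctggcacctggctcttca
Cd79b -3.62 kb, opened: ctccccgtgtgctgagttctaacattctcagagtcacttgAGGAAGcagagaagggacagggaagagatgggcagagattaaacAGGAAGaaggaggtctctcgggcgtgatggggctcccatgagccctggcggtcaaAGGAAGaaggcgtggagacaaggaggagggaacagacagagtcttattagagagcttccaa
Cd79b held 3 ETS matches, Tifab and Pax5 held 1 each, and Igll1 and Rag1 held none, while Rag1 held 2 GATA matches and Pax5 held 1. None held EBF letters, which 5.69% of all distal regions held.

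Lists of other lineages and functions were described in the same way. Over all regions near genes 3.28% opened and 2.18% closed, and of the shared ones 19.9% were higher and 21.5% lower. Monocyte and dendritic cell genes had 18 of 231 regions opened (7.79%) and 4 closed (1.73%), with 16 and 3 of 200 without chromosomes 8, 19 and X. Of the 18, 6 had no peak of any rank in a hi-77+/+ empty library, as did 32.5% of all opened regions. Csf1r, the receptor for macrophage colony-stimulating factor, had 4 opened regions, of which the one 2.55 kb downstream of a TSS ranked 12804, 14948, 8957 and 18253 in hi-77-/- empty replicates 1 to 4, and in hi-77+/+ empty only replicate 2 had a peak, of rank 84556. Ly86, a partner of a Toll-like receptor homolog, had 4, and Id2 had 3. Innate immune sensors had 8 of 115 regions opened (6.96%) and 1 closed, with 7 and 0 of 102 without these chromosomes, and 3 of the 8 had no peak of any rank in hi-77+/+ empty. Of their 44 shared regions 20 were higher (45.5%) and 1 lower, with a median of 0.38. Besides Aim2, these included Nlrp3, the inflammasome sensor of cell stress, whose promoter ranked 18540 to 33593 in hi-77-/- empty, and Il18, an inflammasome cytokine, whose upstream region ranked 19796 to 39428 with no peak in hi-77+/+ empty.

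The next lists are also set beside 3.28% opened and 2.18% closed over all regions near genes. Cytokine and growth factor receptors had 16 of 231 regions opened (6.93%) and 2 closed (0.866%), or 14 and 1 of 216 without chromosomes 8, 19 and X. Of the 16, 7 had no peak of any rank in hi-77+/+ empty, as did 32.5% of all opened regions. Among the opened regions were 3 at Il10ra and 2 each at Il6st and Il13ra1, a receptor chain for interleukin 13. Stem and progenitor transcription factors had 19 of 282 opened (6.74%) and 4 closed (1.42%), or 19 and 4 of 271 without these chromosomes, and 9 of the 19 had no peak of any rank in hi-77+/+ empty. Runx1, a master factor of definitive hematopoiesis, had 4 opened regions. The one 95.6 kb upstream ranked 15402, 10580, 18371 and 12366 in hi-77-/- empty replicates 1 to 4 and had no peak in hi-77+/+ empty. Erg, an ETS factor of stem cells, had 4, while Lmo2, a scaffold of the GATA complex, had 3 opened and 1 closed, and Hlf, a stem cell factor, had 2 opened and 1 closed. The ETS factor list as a whole had 7 of 255 opened (2.75%) and 3 closed (1.18%).

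The counts that follow stand beside 3.28% opened and 2.18% closed over all regions near genes, and 19.9% higher and 21.5% lower over the shared ones. Erythroid genes had 4 of 108 regions opened (3.70%) and 7 closed (6.48%), but 5 of the 7 closed regions lie on chromosome 8. Without chromosomes 8, 19 and X 2 of 61 closed. At 35 shared regions 7 were higher and 12 lower, and after centring each chromosome 7 and 8, with the median changing from -0.13 to 0.04. The 2 others were at Car2, the carbonic anhydrase of erythroid cells, where the region 7.36 kb downstream ranked 21742 to 29787 in hi-77+/+ empty and was absent, or at rank 63221 in replicate 2, in hi-77-/- empty. Mast cell and basophil genes had 3 of 101 opened (2.97%) and 4 closed (3.96%), or 3 and 2 of 96 without chromosomes 8, 19 and X. The opened regions included 2 at Mcpt8, a basophil protease, and the closed regions were 2 each at Slc18a2, the vesicular monoamine transporter on chromosome 19, and Rab27b, a GTPase of granule secretion. Megakaryocyte and platelet genes had 4 of 77 opened and 1 closed. Neutrophil granule genes had no opened or closed region of 91, although 13 of their 30 shared regions were higher and 3 lower. T and NK lineage genes had 2 opened and 2 closed of 91, and housekeeping genes had none opened and 5 closed of 122 (4.10%). Hepatocyte genes had no call in 20 regions, endothelial genes had 2 opened of 28 (7.14%), and mesenchymal genes had 2 opened (4.65%) and 3 closed (6.98%) of 43. The progenitor markers had 8 of 132 opened (6.06%) and 1 closed (0.758%).

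**Figure D4:**
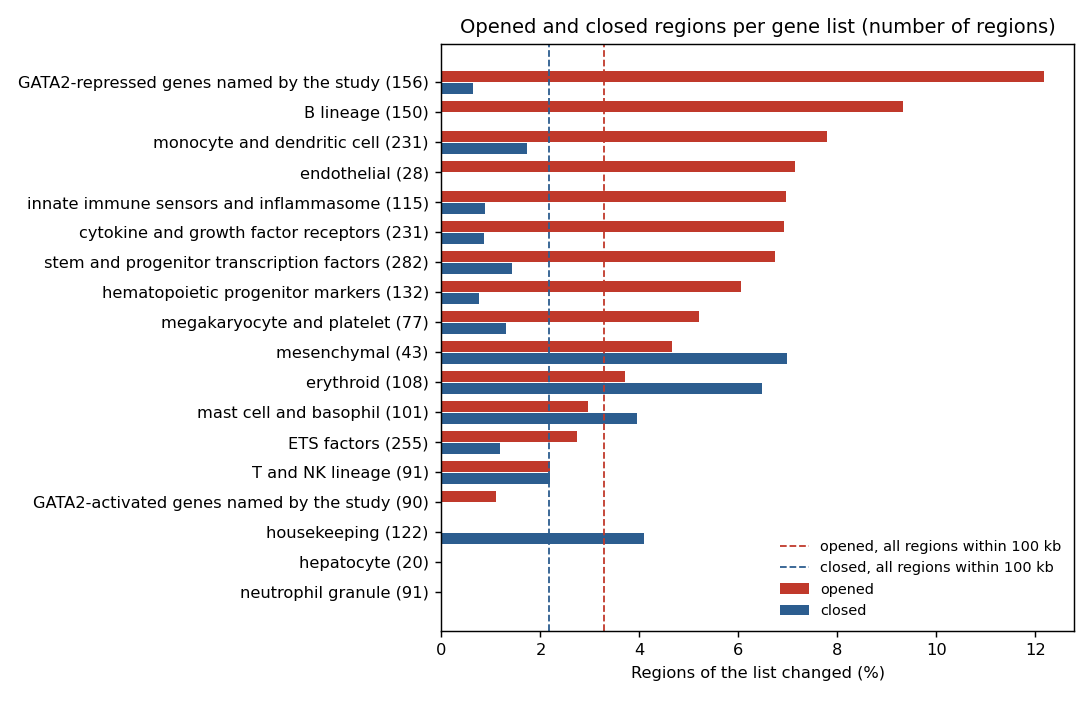
Share of each gene list's regions that opened and closed (percent), with dashed lines at the shares over all regions within 100 kb of a TSS (3.28% and 2.18%) and the number of regions of a list in parentheses. The GATA2-repressed list (12.2%) and the B-lineage list (9.33%) have opened shares above that of all regions near genes, and neutrophil granule and housekeeping genes had none.

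Changed regions clustered at some loci. Over windows of 1 Mb with at least 15 regions, a median of 5.26% of regions changed, and 202 of 1596 windows had none. The 2 densest lay on the X chromosome. The window at 50 to 51 Mb had 16 of 31 regions opened (51.6%), all in Firre (chrX:50555744-50635321), a noncoding gene whose repeats bind the nuclear architecture factor CTCF on the inactive X. Firre held 27, 30, 28 and 27 peaks in hi-77-/- empty replicates 1 to 4 and 2, 2, 1 and 1 in hi-77+/+ empty replicates 1 to 4. The window at 75 to 76 Mb had 12 of 35 opened (34.3%), all in 4933407K13Rik (chrX:75706932-75764699), the tandem repeat locus Dxz4, with 25, 25, 28 and 23 peaks against 2, 3, 1 and 3. Every opened region of both arrays had a retained peak in all 12 hi-77-/- libraries, and these arrays moved with the Xist and Y-linked promoters. Outside them 46 of 1621 regions of the X chromosome opened (2.84%).

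On autosomes the densest windows were at Zfp462, a zinc finger protein gene, with 5 of 15 regions opened (33.3%), at Ext1, a heparan sulfate polymerase gene, with 6 of 19 opened (31.6%), and at Thrb, a thyroid hormone receptor gene, with 4 opened and 1 closed of 16 (31.3%). Per gene, Sash1, a signaling scaffold, had 9 of 21 regions opened and none closed, and none of the 9 had a peak of any rank in a hi-77+/+ empty library. The strongest of these, 69.5 kb upstream of a TSS, ranked 6819, 7212, 5630 and 7318 in hi-77-/- empty replicates 1 to 4. Nrp2, a receptor for semaphorins and VEGF, had 7 of 23 opened, and its strongest region ranked 8083 to 13332 against 51594 to 76640. Cd47 had 6 of 34, Sik1 6 of 23 and Agap1, a GTPase-activating protein, 6 of 26. Tns1, a focal adhesion protein, had 6 of 27 and Ephb2, an ephrin receptor, 6 of 22. Tas1r2, a taste receptor, was the nearest TSS for 6 of 11, all of which lay in other genes or between genes. Over all regions near genes 3.28% opened. Dscam, a cell adhesion molecule, had 5 of 15, with ranks of 11170 to 12403 and no peak in hi-77+/+ empty at its strongest. Pls3, an actin bundling protein, had 12 of 18, all in the Dxz4 array.

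At most 4 regions closed per gene. Over all regions near genes 2.18% closed, and over all regions of chromosome 8 5.79% closed. Otud4, a deubiquitinase, had 4 of 14 closed and Cmip, an adaptor protein, 4 of 57. Chd9, a chromatin remodeler, had 4 of 28 and Dusp4, a MAP kinase phosphatase, 4 of 16. All of these lie on chromosome 8. Away from that chromosome Hnrnpa3, an RNA-binding protein, had 4 of 39 and Cntnap2, a neurexin family member, 4 of 8. Gramd1b, a sterol transporter, had 3 of 27 closed (also 2 opened) and 9230112D13Rik 3 of 6. Dst, a cytoskeletal linker, had 3 of 12 and Clasp2, a microtubule-binding protein, 3 of 7. The Clasp2 promoter region ranked 10580, 21869, 13923 and 20219 in hi-77+/+ empty replicates 1 to 4 and 58344 or no peak in hi-77-/- empty.

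Motifs were counted as the share of a library's distal peaks that held the letters within 200 bp around the summit, which gives 1 value per library and does not use the opened and closed calls. ETS letters, bound by factors such as PU.1 and ERG, were in 50.3%, 51.2%, 49.8% and 51.1% of distal peaks in hi-77-/- empty replicates 1 to 4 and in 43.3%, 42.3%, 41.8% and 40.6% in hi-77+/+ empty replicates 1 to 4. The longer PU.1 letters (GAGGAAGT, which contain an ETS match) were in 10.5% ± 0.118 and 7.92% ± 0.348 (SD, n = 4). EBF letters were in 7.77%, 7.94%, 7.61% and 8.10% in hi-77-/- empty and in 5.33%, 5.27%, 5.11% and 4.79% in hi-77+/+ empty replicates 1 to 4. For each of these the lowest hi-77-/- value exceeded the highest hi-77+/+ value. All 3 had an exact permutation p of 0.0286 and an adjusted p of 0.0364 over 14 motifs.

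Of the 14 motifs, 11 passed the test. RUNX letters (TGTGGT or TGCGGT) were higher (32.1% against 28.0%), as were C/EBP (TTGCNNAA, 12.2% against 10.8%), HOX and PBX (TGATTNAT, 2.74% against 1.99%), IRF (GAAANNGAA, 6.19% against 5.43%) and ETS and IRF composite letters (GGAANNGAA, 7.15% against 6.41%), and E-boxes (69.0% against 68.1%). GATA letters were lower, with 24.7%, 24.4%, 24.4% and 24.7% in hi-77-/- empty replicates 1 to 4 and 25.9%, 25.4%, 25.1% and 25.0% in hi-77+/+ empty replicates 1 to 4 (exact permutation p = 0.0286, adjusted p = 0.0364). The GATA difference of -0.786 percentage points was small, and with the best 25000 peaks per library it was 0.0607. CTCF core letters (CANNAGGGG) were lower (9.61% against 11.5%). The composite of an E-box and a GATA motif 6 to 14 bp apart (1.76% against 1.70%, adjusted p = 0.133), AP-1 (TGANTCA, adjusted p = 0.429) and STAT letters (TTCNNNGAA, adjusted p = 0.308) did not pass the exact permutation test. Without chromosomes 8, 19 and X the ETS, EBF and GATA differences were 8.66, 2.79 and -0.738 percentage points.

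The opened and closed distal regions are described by the same letters, with no test since their calls come from these libraries. ETS letters were in 61.5% of 2830 opened, 29.8% of 1467 closed and 44.4% of all distal regions. EBF letters were in 13.8%, 1.98% and 5.69%, PU.1 letters in 13.2%, 3.27% and 8.48%, and RUNX letters in 38.9%, 22.9% and 29.9%. GATA letters were in 21.8% of opened, 27.5% of closed and 29.5% of all distal regions. They were in 24.85% of the distal regions that were not changed and had a peak in all 8 libraries. The closed share thus lay below that of all distal regions but above that of the unchanged ones. All distal regions were joined over 16 libraries and include some without a retained peak in any of the 8 compared here. Whether closed regions held GATA letters more often therefore depends on the comparison. The GC content of the windows was 50.2% in opened, 50.2% in closed and 49.8% in all distal regions.

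**Figure D5:**
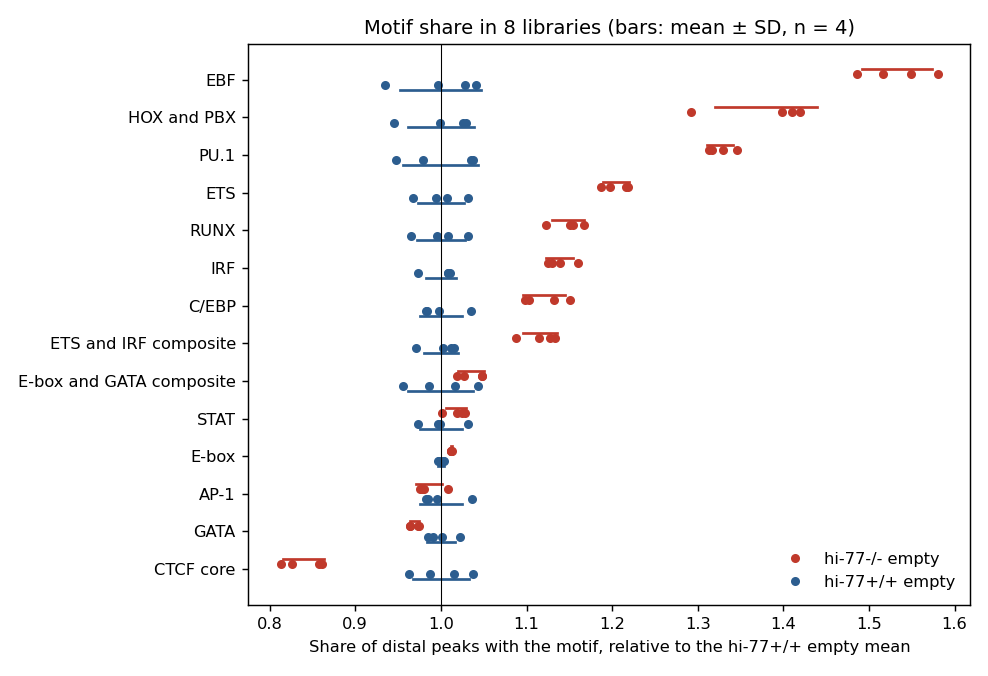
Share of distal peaks with each motif, divided by the mean of the hi-77+/+ empty libraries (x axis), with 1 point per library and bars for the mean ± SD of each group (n = 4). Before this division ETS letters were in 49.8% to 51.2% of distal peaks of hi-77-/- empty libraries and 40.6% to 43.3% of hi-77+/+ empty libraries, with no overlap.

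The best ranked closed distal regions with a GATA match and opened distal regions with an ETS match are shown as examples of the classes. The closed ones lie near Tub, a tubby family protein (chr7:108967077-108967276), Nfat5, a factor of osmotic stress (chr8:107329668-107329867), and Lats1, a kinase of Hippo signaling (chr10:7695396-7695595), with GATA letters in capitals on the plus strand.
Tub, closed: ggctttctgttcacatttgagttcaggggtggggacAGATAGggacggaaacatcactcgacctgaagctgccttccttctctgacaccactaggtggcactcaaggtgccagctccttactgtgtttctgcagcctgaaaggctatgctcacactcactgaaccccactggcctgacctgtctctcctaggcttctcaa
Nfat5, closed: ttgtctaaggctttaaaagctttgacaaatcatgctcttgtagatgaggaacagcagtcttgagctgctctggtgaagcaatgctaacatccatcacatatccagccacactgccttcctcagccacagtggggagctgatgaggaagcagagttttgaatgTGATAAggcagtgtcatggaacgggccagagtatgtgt
Lats1, closed: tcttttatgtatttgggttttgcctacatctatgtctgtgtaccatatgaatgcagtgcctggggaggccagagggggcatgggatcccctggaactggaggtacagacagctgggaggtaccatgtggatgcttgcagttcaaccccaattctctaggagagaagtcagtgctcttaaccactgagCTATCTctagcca
The opened ones lie near Gipc1, a trafficking adaptor (chr8:83656869-83657068), 1700029J07Rik (chr8:45968358-45968557) and Pde10a, a phosphodiesterase (chr17:8867935-8868134). A further window near Rgs6 (chr12:83039990-83040189), among the best ranked with EBF letters, was added after the values were seen. Capitals mark GATA, ETS or EBF letters.
Gipc1, opened: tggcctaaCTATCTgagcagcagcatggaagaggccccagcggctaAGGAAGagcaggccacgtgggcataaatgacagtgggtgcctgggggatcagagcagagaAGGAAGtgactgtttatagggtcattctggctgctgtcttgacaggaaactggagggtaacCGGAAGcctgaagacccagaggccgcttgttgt
1700029J07Rik, opened: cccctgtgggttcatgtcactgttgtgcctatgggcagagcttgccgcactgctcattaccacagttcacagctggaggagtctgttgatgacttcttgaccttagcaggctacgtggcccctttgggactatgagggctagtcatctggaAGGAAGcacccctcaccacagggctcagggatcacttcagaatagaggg
Pde10a, opened: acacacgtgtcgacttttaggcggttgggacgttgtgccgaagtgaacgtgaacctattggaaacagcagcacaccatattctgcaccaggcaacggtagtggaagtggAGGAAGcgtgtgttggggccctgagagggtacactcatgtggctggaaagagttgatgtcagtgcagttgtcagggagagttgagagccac
Rgs6, opened: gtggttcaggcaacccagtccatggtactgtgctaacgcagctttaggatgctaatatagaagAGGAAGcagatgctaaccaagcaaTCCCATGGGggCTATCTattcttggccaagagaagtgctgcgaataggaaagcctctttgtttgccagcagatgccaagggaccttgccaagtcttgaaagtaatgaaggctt

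The other hi-77-/- libraries show which changes were present regardless of the vector. Of the opened regions 762 (23.4%) had a retained peak in all 12 hi-77-/- libraries, and of the closed regions 946 (49.5%) had one in none of them. The call itself fixes the hi-77-/- empty libraries among the 12, so only the other 8 add to these counts. No share over all regions stands beside them. The shared line and the loss of the enhancer cannot be told apart at these regions.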

How the data were processed

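ATAC-Seq libraries were read as peak lists. Per the labels and the study's methods, the authors trimmed reads (Trim Galore 0.4.1), aligned them to mm10 (Bowtie2 2.2.5), kept unique reads, removed duplicates (Picard 2.26.0) and called peaks per library with MACS2, without replicates pooled. The version of MACS2 and the boundaries of the deletion were not given in the sources used here. In the deposited lists the score is an integer made from the q-value, fold enrichment is a ratio of summit height to the library's background, significance stands as -log10 p-value and -log10 q-value, and the summit is an offset in bp. Every fold enrichment was a whole multiple of 1 step per library (100% within 0.01), so the background was constant within a library and heights are relative. Read totals are not in the peak lists, which leaves depth unknown. The step gave a background pileup of 0.378 to 0.666 in hi-77-/- empty and 0.301 to 0.707 in hi-77+/+ empty. A peak at rank 49000 had a -log10 p of 7.38 to 8.13 and 8.34 to 9.71.

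Regions, ranks and calls were computed in Python 3.11.15 (numpy 2.4.6, pandas 2.3.3, scipy 1.17.1) with GENCODE M21 genes and the RefSeq GRCm38.p6 genome. Promoters lie within 3 kb of a protein-coding TSS, and a region was given to the nearest such TSS within 100 kb. Peak heights were fitted with limma 3.58.1 in R 4.3.3, with trend, after quantile normalization, on regions with a peak in all 8 libraries, with Benjamini-Hochberg adjustment over all of them. Measures with a single value per library were tested by exact permutation over the 8 libraries (two-sided, one-sided for the Jaccard index), adjusted within each family. Statistical scripts were tested on simulated data. Replicate numbers did not pair the samples (correlations of deviations -0.0130 to 0.00615). Alternatives were the number of peaks retained, the overlap, the call rule, the scaling, the motif window, leaving out each replicate, and, chosen after seeing the data, leaving out chromosomes 8, 19 and X and refits of the check at the deleted site.

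The members and gene lists were chosen with earlier results of these data known. Named were the 5 best ranked regions of each class, the 10 genes with most opened and most closed regions, up to 4 genes per list, the genes the study names, the 10 largest higher and lower regions, the 5 densest windows, and 3 sequences per class beside those near the study's genes. Genes named outside this rule (such as the sex-linked loci) were chosen after their values were seen.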

Additional observations from a re-analysis of the deposited data

Results flagged for a closer look

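Dixon's test at the 95% level was run on 84 groups of 4 libraries, 1 per measure and genotype. In 5 of them 1 library stood apart, its gap to the nearest of the others taking most of the range. Chance gives this in about 1 of 20 groups, and 5 of 84 is near that rate. Among motif shares of distal peaks, AP-1 letters were in 12.64% in hi-77-/- empty replicate 4 against 12.23% to 12.29% in the others, and IRF letters were in 5.287% in hi-77+/+ empty replicate 4 against 5.475% to 5.489%. HOX and PBX letters were in 2.565% in hi-77-/- empty replicate 3 against 2.776% to 2.818%. In hi-77-/- empty replicate 1 chromosome 7 held 7.18% of retained peaks against 6.461% to 6.529% in the others, and chromosome 12 held 3.494% against 3.79% to 3.816%. IRF and HOX and PBX letters separated the genotypes in the report, and the library that stood apart lay on the far side from the other genotype for IRF and on the near side for HOX and PBX.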

How the results depend on the processing

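With the best 25000 peaks per library 2130 regions opened. With every deposited peak, where the lists differ in length by construction (63924 to 111743 peaks), 4270 closed and the opened share of changed regions was 36.1% rather than 63.0%, and the promoter share difference turned to 0.918 percentage points. Requiring no peak of any rank in the other group gave 1058 opened and 825 closed, an overlap of 50% gave an opened share of 51.5%, and a rule of at least 3 against at most 1 libraries gave 7475 and 6576. Without further scaling 10581 shared regions were higher and 4603 lower. The GATA difference was 0.0607 (reversed) with 25000 peaks and -0.175, no longer past the threshold, in a window of 100 bp. AP-1, which did not pass the test, turned to 0.301 with 25000 peaks and 0.0200 with every peak, and STAT to -0.0371 with 25000. The causes were not tested. With 1 replicate left out the call asks for fewer libraries, so the opened and closed counts can only rise. Leaving out 1 replicate gave 3445 to 3856 opened and 2224 to 2494 closed regions, an opened share of 58.9% to 62.5%, a Jaccard difference of 0.136 to 0.158, 6059 to 6722 higher and 6157 to 6663 lower regions, and differences of -1.32 to -0.826 (promoter), -0.914 to -0.595 (GATA, adjusted p = 0.0727 by the exact permutation test without any 1 hi-77-/- library), 8.14 to 9.04 (ETS), 2.62 to 2.81 (EBF) and -1168 to -991 bp (-77 site). With the replicate number as a block, 6930 regions were higher and 7092 lower, and sign-flip tests of the paired differences for GATA (-0.786), ETS (8.60), EBF (2.73) and the -77 site (-1063) gave p = 0.125, the smallest that 4 exact pairs allow. Of the gene list counts, 100 stayed within 1.5 times the reported count and 44 did not, and all 263 alternative log2 differences of the named shared regions that could be fitted kept their sign and side of the threshold.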
